A study of Mus musculus with 27 samples.

Results

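Flna, Pls3, Cd99l2, Arhgef6 and Timp1 are 5 X-linked mouse genes with roles in the actin cytoskeleton, at the cell surface and in the extracellular matrix, all of them also expressed by fibroblasts. They were picked by symbol, and all 5 are among the 270 X genes of one table of allelic ratios and the 254 of another (276 different genes in all). The tables cover 23 libraries of chromatin-associated RNA, the RNA left on insoluble chromatin after nuclear lysis, from female 129S X Cast embryonic stem (ES) cells. In every line the promoter of the endogenous Xist on the 129S X was exchanged for a doxycycline-inducible TetOn promoter, and Bgl stem-loops were added at the Xist 3′ end. The lines are SPOCmut, with a mutated Spen SPOC domain (3 clones, C10, C2 and G1), SpenKO (called SpenRRM in the series text), CIZ1KO and WT. SPOCmut has 3 libraries at 24 h of doxycycline (1 to 1.5 µg/mL in every induced ES library) and 3 at 0 h. SpenKO has 2 at 0 h, 1 at 3 h and 2 at 24 h, and WT has 2 at each of these times. CIZ1KO has 2 at 24 h and 2 at 0 h. CIZ1KO and WT also have 1 library each of neural precursor cells (NPC) at day 30. The comparison asks how far silencing by Xist proceeds in lines that differ in CIZ1 or Spen.

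Xist is a long noncoding RNA that spreads over the X from which it is transcribed and silences genes there. SPEN binds Xist RNA through its RRM domains and recruits corepressors through its SPOC domain, and CIZ1 is a nuclear matrix protein that helps to anchor Xist. Filamin A, the product of Flna, cross-links actin filaments into networks and ties them to integrins, while plastin 3, from Pls3, packs filaments into tight bundles. Arhgef6 encodes an exchange factor that activates the GTPases Rac1 and Cdc42, which steer actin assembly. Cd99l2 encodes a surface glycoprotein related to CD99, and Timp1 a secreted inhibitor of matrix metalloproteinases.

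Each value is an allelic ratio, a fraction of the reads of a gene that could be given to one X copy. No source used here says which copy is in the numerator. Xist itself has a ratio close to 1 and its inducible copy sits on 129S, so the values are taken as 129S shares, with 0.5 for equal RNA from both copies. A lower ratio after doxycycline then means less of a gene's RNA from the 129S X, relative to the Cast X. These are bulk libraries without expression levels, so fewer cells of a type and less RNA per cell cannot be told apart, nor can a loss from the 129S X and a gain from the Cast X. ES cells grew on mitomycin-inactivated fibroblast feeders of a strain that the labels do not give, and the part of feeder RNA in these ratios was not tested. For the same lack of levels, the labelled cell type could not be checked against its markers. The number of reads behind each ratio is unknown.

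In mm10, Flna spans chrX:74223461-74246534, Pls3 chrX:75785654-75874574, Cd99l2 chrX:71420060-71492849 and Arhgef6 chrX:57231485-57338729, all on the minus strand. Timp1 spans chrX:20870166-20874737 on the plus strand. It lies inside Syn1, a synaptic vesicle gene transcribed from the opposite strand (chrX:20860511-20921004), and Syn1 is itself in the tables. Cd99l2 overlaps the antisense gene Gm16189, which is in neither table. Whether reads were counted by strand is not given here, so reads of these overlapping pairs may not be separate. Flna, Pls3 and Cd99l2 lie 29.2, 27.7 and 32 Mb from Xist, Arhgef6 lies 46.2 Mb and Timp1 82.6 Mb away.

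The promoters of Flna, Pls3 and Cd99l2 are shown because these genes changed by more than the library median in SPOCmut, CIZ1KO and WT. They are RefSeq sequences of GRCm38.p6, the assembly called mm10, from 250 bases before to 50 after the start of transcription, 5′ to 3′ on the minus strand. Capitals mark GC boxes (GGGCGG on either strand) and CCAAT boxes (CCAAT on either strand).
Flna promoter, chrX:74246485-74246784: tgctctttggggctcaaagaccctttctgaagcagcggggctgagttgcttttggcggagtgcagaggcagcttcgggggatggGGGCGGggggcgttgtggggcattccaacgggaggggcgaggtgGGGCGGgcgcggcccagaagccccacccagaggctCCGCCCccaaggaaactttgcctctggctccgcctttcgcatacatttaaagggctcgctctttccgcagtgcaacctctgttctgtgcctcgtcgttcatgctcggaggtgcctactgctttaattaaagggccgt
Pls3 promoter, chrX:75875121-75875420: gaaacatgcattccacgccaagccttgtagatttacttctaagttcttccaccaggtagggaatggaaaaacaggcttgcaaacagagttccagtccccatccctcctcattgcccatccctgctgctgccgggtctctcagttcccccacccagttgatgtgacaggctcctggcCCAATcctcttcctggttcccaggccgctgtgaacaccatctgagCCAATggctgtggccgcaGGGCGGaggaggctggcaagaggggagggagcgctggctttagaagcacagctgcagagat
Cd99l2 promoter, chrX:71492800-71493099: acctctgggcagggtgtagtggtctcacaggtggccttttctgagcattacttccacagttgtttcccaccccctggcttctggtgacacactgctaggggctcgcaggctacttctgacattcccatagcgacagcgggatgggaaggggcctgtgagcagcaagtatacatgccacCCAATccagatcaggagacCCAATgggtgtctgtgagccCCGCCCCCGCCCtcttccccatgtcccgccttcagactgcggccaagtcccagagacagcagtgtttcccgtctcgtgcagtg
The Flna window held 3 GC boxes and 0 CCAAT boxes, the Pls3 window 1 and 2, and the Cd99l2 window 2 and 2. The Pls3 window belongs to the nearest of 3 RefSeq starts, which lies 596 bases from the 5′ end of the gene in the deposited tables. The Arhgef6 window held neither box, and the Timp1 window held 1 of each. None of the 5 windows held TATAAA, or TGACTCA or TGAGTCA, the AP-1 motif. Of 32851 promoter windows of the same length, 35.7% held a GC box, 37.4% a CCAAT box, 13.6% TATAAA and 5.2% an AP-1 motif.

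Without doxycycline, the median ratio over the X genes of a library lay between 0.504 and 0.523 in the Spen table. After 24 h it was 0.443 to 0.449 in SPOCmut, 0.503 and 0.506 in SpenKO, and 0.291 and 0.305 in WT. The CIZ1 table holds the same 4 WT libraries at 0 h and 24 h with identical values for the 248 genes shared. Replicates of a group differed at nearly every gene (at most 1.11% of values were equal), so none was taken for a copy. Nothing in the labels says that replicates other than the SPOCmut clones came from separate cultures, and the p-values then measure the spread between these libraries only. The other lines are not given as several clones, so line and genotype cannot be told apart.

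Before induction, the 5 genes already differed in their balance between the X copies. In WT at 0 h, Arhgef6 had ratios of 0.336 and 0.349 and stood at place 16 of 270 from the lowest. Pls3, at 0.494 and 0.426, took place 61. Flna, with 0.513 and 0.519, and Cd99l2, with 0.532 and 0.531, lay close to equal shares at places 159 and 193. Timp1 was the most tilted toward 129S of the 5, at 0.557 and 0.613 (place 237). The order Arhgef6, Pls3, Flna, Cd99l2, Timp1 was the same for the SPOCmut and SpenKO means at 0 h, where Arhgef6 averaged 0.412 in SPOCmut and 0.483 in SpenKO. In CIZ1KO the order of the means differed only at the top, with Cd99l2 at 0.597 above Timp1 at 0.565. The CIZ1KO libraries of Timp1, 0.645 and 0.485, lay on either side of those of Cd99l2, 0.606 and 0.588. In SpenKO the Arhgef6 libraries, 0.482 and 0.484, lay between those of Pls3, 0.507 and 0.471. Flna and Cd99l2 libraries overlapped in SpenKO and SPOCmut. In WT the libraries of neighbours in this order did not overlap, but the gap between the Pls3 and Flna means was smaller than the distance between the Pls3 libraries, and the gap between Cd99l2 and Timp1 smaller than that between the Timp1 libraries.

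At 0 h no line differed from WT at any of the 5 genes (limma, adjusted p under 0.05 over all genes of a table). None of the 270 genes passed this test in SpenKO or SPOCmut (0%), and none of 254 in CIZ1KO. The widest gap was that of Arhgef6, with 0.482 and 0.484 in SpenKO, against 0.336 and 0.349 in WT. Both SpenKO libraries lay above both WT libraries, by 0.140 ± 0.0413 (SE, n = 2 each, adjusted p = 0.285 and unadjusted p = 0.00631 in limma). At an unadjusted p under 0.05, 1 of the 5 genes differed in SpenKO (Arhgef6), 0 in SPOCmut and 2 in CIZ1KO, which were Cd99l2 and Arhgef6, both higher than in WT. At the same threshold, 4 of all 270 genes were lower and 18 higher in SpenKO, 8 lower and 26 higher in SPOCmut, and 4 of 254 lower and 12 higher in CIZ1KO.

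**Figure D1:**
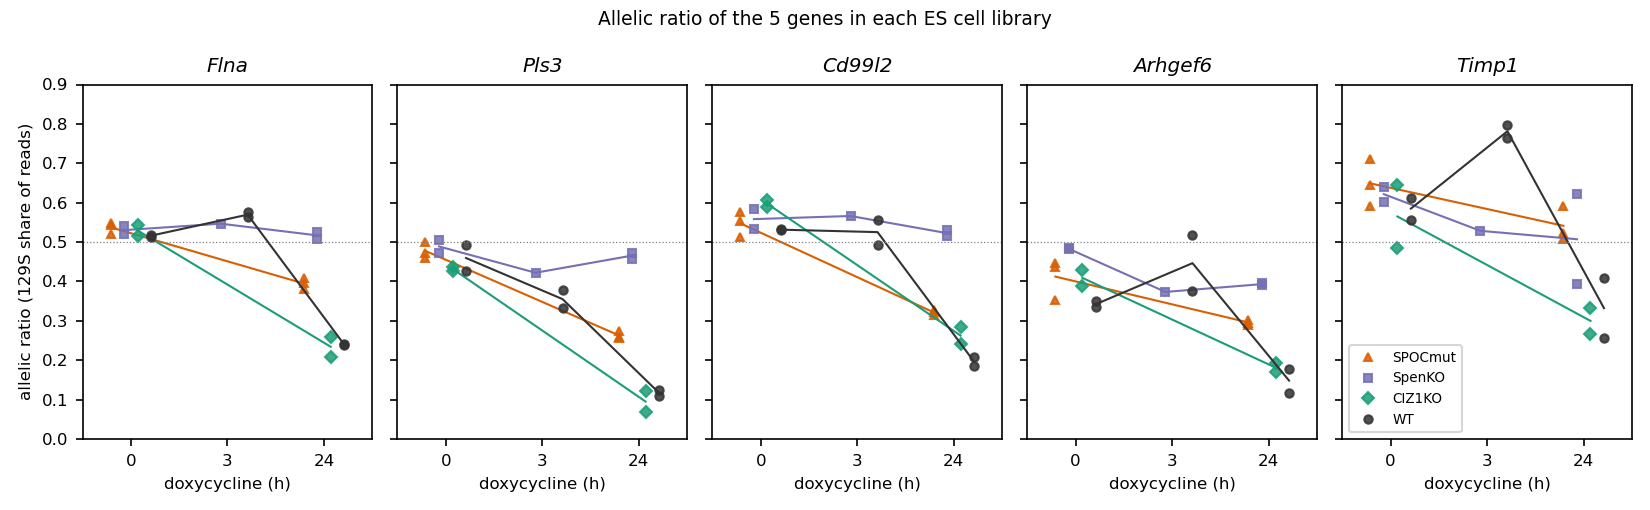
Allelic ratio (129S share, y axis) of each gene in each library against hours of doxycycline (x axis), with points for libraries, colours for the SPOCmut, SpenKO, CIZ1KO and WT lines, and lines through the group means. WT points of all 5 genes end between 0.110 and 0.408 at 24 h. SPOCmut points end between SpenKO and WT for Flna, Pls3, Cd99l2 and Arhgef6. SpenKO points of Flna, Pls3 and Cd99l2 at 24 h are close to their 0 h values, while the single Pls3 point at 3 h is lower.

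All 5 genes lost 129S share in WT cells after 24 h of doxycycline, as did 88.9% of the 270 X genes. Flna had ratios of 0.242 and 0.238 at 24 h, against 0.513 and 0.519 at 0 h. The change was -0.276 ± 0.0137 (SE from limma, n = 2 each, adjusted p = 1.88e-08), and the mean ratio at 24 h was 46.5% of that at 0 h. Replicates were close together and the groups far apart, with the smallest SE of the 5 genes. Pls3, the other gene that shapes actin filaments directly, came down further. Its ratios were 0.110 and 0.124 at 24 h, against 0.494 and 0.426 at 0 h, a change of -0.343 ± 0.0236 (adjusted p = 1.83e-07) that left 25.5% of the starting ratio. This was the lowest share left among the 5 genes and place 15 of 270 from the largest fall. Cd99l2 had 0.186 and 0.207 at 24 h, against 0.532 and 0.531 at 0 h. It fell by 0.335 ± 0.0245 (adjusted p = 3.07e-07, place 19) and kept 37.0%.

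Arhgef6 and Timp1 had the larger SEs, which the fit takes from the spread in all groups of the table. Arhgef6, the Rac1 and Cdc42 exchange factor, had 0.118 and 0.179 at 24 h, against 0.336 and 0.349 at 0 h. It fell by 0.194 ± 0.0413 (SE, n = 2 each, limma adjusted p = 0.00110), close to the median change of all genes of -0.197, and kept 43.4% of its low starting ratio. The library medians kept a larger share, with 0.291 and 0.305 at 24 h, against 0.514 and 0.504 at 0 h. Timp1 had 0.408 and 0.256 at 24 h, against 0.557 and 0.613 at 0 h, so the groups did not overlap although the treated libraries lay far apart. The change of -0.253 ± 0.0702 (adjusted p = 0.00581) left 56.8%. Without the second 24 h library it was -0.177 and missed the threshold (adjusted p = 0.0605).

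Set against the median of its own library, which removes the shift common to X genes, 3 of the 5 genes fell by more than that median in WT. In this test 16.3% of all genes were called below and 23.3% above the median. Relative to the shared shift, Flna stood at -0.0656 ± 0.0155 (SE, n = 2 each, limma adjusted p = 0.00595), Pls3 at -0.132 ± 0.0220 (adjusted p = 0.000762) and Cd99l2 at -0.124 ± 0.0245 (adjusted p = 0.00215). The difference was 0.0168 ± 0.0395 for Arhgef6 (adjusted p = 0.760) and -0.0419 ± 0.0711 for Timp1 (adjusted p = 0.678), neither past the threshold. Their 95% intervals, -0.0701 to 0.104 and -0.199 to 0.115, include a departure of the size seen for Flna. This fit was made on the ratio scale only, where a gene that starts low, such as Arhgef6, has less room to fall.

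Genes nearby on the X did not all move by the same amount. Distances were taken between the lower coordinates of genes, whatever their strand. Of 5 measured genes within 0.5 Mb of Pls3, none fell as far in WT at 24 h, and their median change was -0.110. The nearest, 4933407K13Rik, a noncoding transcript 60.2 kb away, fell by 0.219 ± 0.0218 (limma adjusted p = 3.36e-06). None of 5 neighbours of Cd99l2 fell further either (median -0.212), and the genes on either side, the phosphatase-family gene Mtmr1 and the HMG-box gene Hmgb3, fell by 0.212 and 0.207. Of 22 neighbours of Flna, 5 fell further, against a median of -0.189. Emd, a close neighbour that encodes the nuclear envelope protein emerin, fell by 0.116. At Arhgef6, with its low starting ratio, 4 of 5 neighbours fell further (median -0.241). Rbmx, an RNA-binding protein gene, was among them and fell by 0.274. The 95% interval of the Arhgef6 change, -0.285 to -0.103, includes that median and the Rbmx change. None of 15 neighbours of Timp1 fell further than it did (median -0.158). The 95% interval of the Timp1 change, -0.408 to -0.0974, includes that median and the lowest neighbour change, -0.225.

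**Figure D2:**
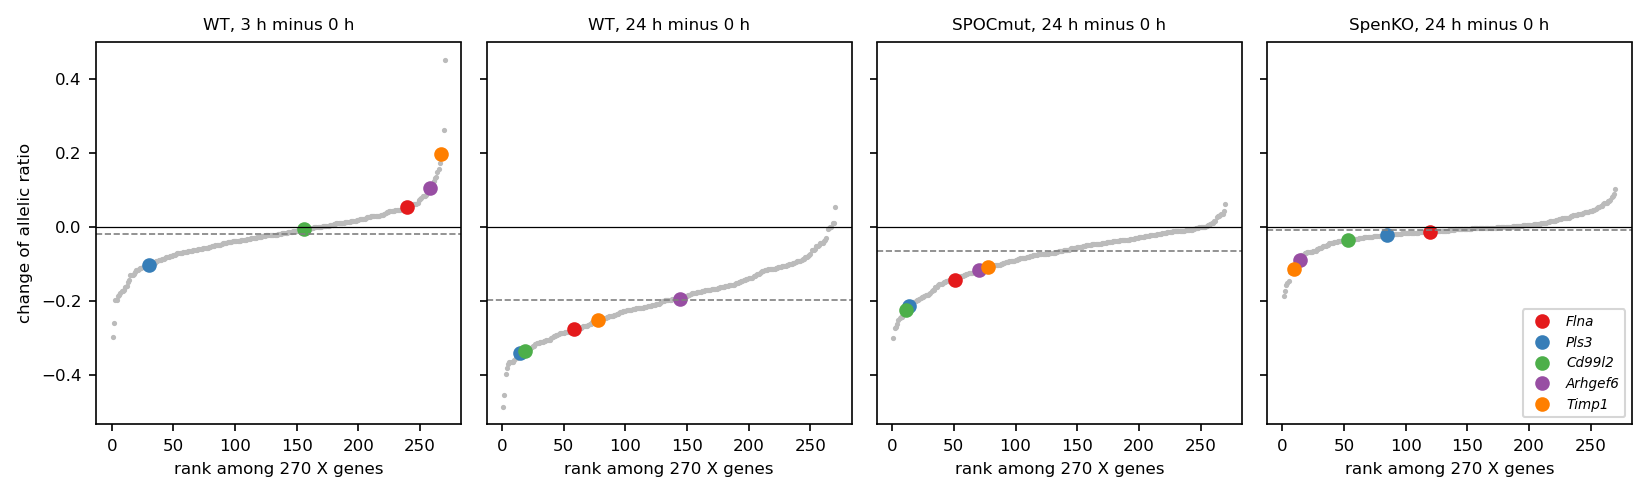
Change of allelic ratio (y axis) of the 270 X genes in order from the lowest to the highest (x axis, rank) for WT at 3 h, WT at 24 h, SPOCmut at 24 h and SpenKO at 24 h, each against 0 h, with the 5 genes coloured, all genes in grey and a dashed line at the median change. Pls3 and Cd99l2 stand at places 14 and 11 in SPOCmut and 15 and 19 in WT at 24 h, while Timp1 stands at place 267 in WT at 3 h.

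At 3 h the genes had gone different ways. Pls3 was the one that had lost 129S share, and Flna the one that had gained it, where 17% of all genes were called lower and 5.19% higher. Pls3 had 0.332 and 0.378 at 3 h, against 0.494 and 0.426 at 0 h, a change of -0.104 ± 0.0236 (SE, n = 2 each, limma adjusted p = 0.00796). Both 3 h libraries lay below both 0 h libraries. Flna had 0.576 and 0.563 at 3 h, against 0.513 and 0.519 at 0 h, a rise of 0.0533 ± 0.0137 (adjusted p = 0.0164). Cd99l2 showed no shift, with 0.493 and 0.557 at 3 h, on either side of 0.532 and 0.531 at 0 h (-0.00621 ± 0.0245, adjusted p = 0.894).

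Timp1 and Arhgef6 had higher ratios at 3 h in both libraries without passing the test. Timp1 had 0.797 and 0.765 at 3 h, against 0.557 and 0.613 at 0 h, a difference of 0.196 ± 0.0702 (SE, n = 2 each, limma adjusted p = 0.0676) and place 267 of 270. Arhgef6 had 0.375 and 0.518 at 3 h, against 0.336 and 0.349 at 0 h (0.104 ± 0.0413, adjusted p = 0.0991). Of 15 neighbours of Timp1, 1 passed the test as higher at 3 h, and their median change was 0.0176. Of 22 neighbours of Flna, 4 passed as lower and 1 as higher at 3 h, with a median change of -0.0421.

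The 3 h calls rested on few libraries. The Flna rise had adjusted p-values of 0.0782 and 0.0532 without the first and the second 0 h library and 0.0974 without the first 3 h library, and the Pls3 fall had 0.0691 without the first 0 h and 0.0782 without the first 3 h library. Neither gene passed when only the 3 h and 0 h libraries set the spread (0.124 for Flna and 0.177 for Pls3), and Arhgef6 passed without the first 3 h library (0.176, adjusted p = 0.00884).

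Between 3 h and 24 h all 5 genes fell, against 85.6% of all genes called lower and 0.37% higher. Timp1 changed most, by -0.449 ± 0.0702 (SE, n = 2 each, limma adjusted p = 0.000138), place 3 of 270. Flna changed by -0.330, Cd99l2 by -0.329, Arhgef6 by -0.298 and Pls3 by -0.238, each with both 24 h libraries below both 3 h libraries. Pls3, the one gene of the 5 called lower at 3 h, changed least over this interval. Both comparisons use the same 3 h libraries. A low ratio at 3 h by itself makes the later fall smaller, and a high one, as at Timp1, makes it larger.

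Syn1, which surrounds Timp1, had lower ratios at 3 h than at 0 h in WT, where those of Timp1 were higher. Neither change passed the test, and the difference between these genes was not tested. The Syn1 ratios were 0.529 and 0.565 at 3 h, against 0.599 and 0.571 at 0 h (-0.0383 ± 0.0167, SE, n = 2 each, limma adjusted p = 0.132). At 24 h Syn1 had 0.361 and 0.378, a fall of 0.216 ± 0.0167 (adjusted p = 4.87e-07). How many reads the overlapping genes share was not tested.

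In SpenKO none of the 5 genes passed the test between 24 h and 0 h. At an adjusted p under 0.05, 0.741% of the 270 genes were called lower and none higher. Nor did any of the 5 pass at an unadjusted p under 0.05, where 18 of the 270 genes were lower and 1 higher. Flna had 0.508 and 0.526 at 24 h, against 0.519 and 0.541 at 0 h, with overlapping groups (-0.0133 ± 0.0137, SE, n = 2 each, limma adjusted p = 0.893). The 95% interval of this change, from -0.0436 to 0.0170, does not reach the WT change. Pls3 had 0.473 and 0.458 at 24 h, against 0.507 and 0.471 at 0 h (-0.0232 ± 0.0236, interval -0.0753 to 0.0289). Cd99l2 had 0.531 and 0.514 at 24 h, against 0.583 and 0.534 at 0 h (-0.0356 ± 0.0245, interval -0.0899 to 0.0186). These 3 genes kept nearly equal shares from both X copies in SpenKO at 24 h. None of the 5 departed from the library median at an adjusted p under 0.05, where 0.37% of all genes were called below it. The same held at an unadjusted p under 0.05, where 14 of the 270 genes lay below it and 3 above.

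Arhgef6 and Timp1 were less settled in SpenKO. Arhgef6 had 0.395 and 0.392 at 24 h, against 0.482 and 0.484 at 0 h. The groups did not overlap, and the difference of -0.0895 ± 0.0413 (SE, n = 2 each) had a limma adjusted p of 0.657 and an unadjusted p of 0.0541. Its single 3 h library had 0.373. Timp1 had 0.393 and 0.621 at 24 h, against 0.603 and 0.641 at 0 h (-0.114 ± 0.0702, adjusted p = 0.831). Its treated libraries differed from each other by more than the change itself. At 3 h the single SpenKO library gave 0.547 for Flna, 0.422 for Pls3, 0.566 for Cd99l2 and 0.529 for Timp1, with no replicate to test them. Pls3 lay below both of its 0 h libraries (0.507 and 0.471), as did Timp1 and Arhgef6. Flna lay above both of its own (0.519 and 0.541), and Cd99l2 between them.

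In SPOCmut 4 of the 5 genes fell at 24 h, against 49.6% of all genes. Flna had 0.380, 0.395 and 0.410 in clones C10, C2 and G1 at 24 h, against 0.543, 0.549 and 0.522 at 0 h. It fell by 0.143 ± 0.0112 (SE, n = 3 each, limma adjusted p = 3.68e-06). Pls3 had 0.257, 0.258 and 0.275 at 24 h, against 0.471, 0.501 and 0.461 at 0 h, a change of -0.214 ± 0.0192 (adjusted p = 5.87e-06). Every treated clone lay below every untreated one at both genes. Cd99l2 had 0.315, 0.323 and 0.327 at 24 h, against 0.513, 0.576 and 0.553 at 0 h. Its change of -0.226 ± 0.0200 (adjusted p = 5.81e-06) took place 11 of 270, ahead of Pls3 at place 14.

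Arhgef6 fell by less in the SPOCmut clones. It had 0.302, 0.290 and 0.296 at 24 h, against 0.437, 0.446 and 0.354 at 0 h, a change of -0.117 ± 0.0337 (SE, n = 3 each, limma adjusted p = 0.0139). The treated clones were alike, and among the untreated ones G1 lay well below the other clones. Without the untreated C10 library the change was -0.104 (adjusted p = 0.0513), and without untreated C2 it was -0.0998 (adjusted p = 0.0578). Timp1 had 0.508, 0.592 and 0.524 at 24 h, against 0.592, 0.712 and 0.644 at 0 h. It was lower within each clone, but treated C2 reached the level of untreated C10, so the groups overlapped and the change of -0.108 ± 0.0573 did not pass (adjusted p = 0.143). Syn1 around it changed by -0.0242 ± 0.0136 (adjusted p = 0.165).

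Measured against the library median, Flna, Pls3 and Cd99l2 again fell by more than the shared shift in SPOCmut, where 17.8% of all genes were called below it. The differences were -0.0713 ± 0.0127 for Flna (limma adjusted p = 0.00136), -0.143 ± 0.0180 for Pls3 and -0.154 ± 0.0200 for Cd99l2 (both adjusted p = 0.000235; n = 3 each). Arhgef6, at -0.0451 ± 0.0322 (adjusted p = 0.303), and Timp1, at -0.0363 ± 0.0581 (adjusted p = 0.675), did not pass. As a share of the WT change, the SPOCmut change was 51.6% for Flna, 62.5% for Pls3, 67.4% for Cd99l2, 60.0% for Arhgef6 and 42.6% for Timp1. Over all genes the median change was -0.0658 in SPOCmut and -0.197 in WT.

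**Figure D3:**
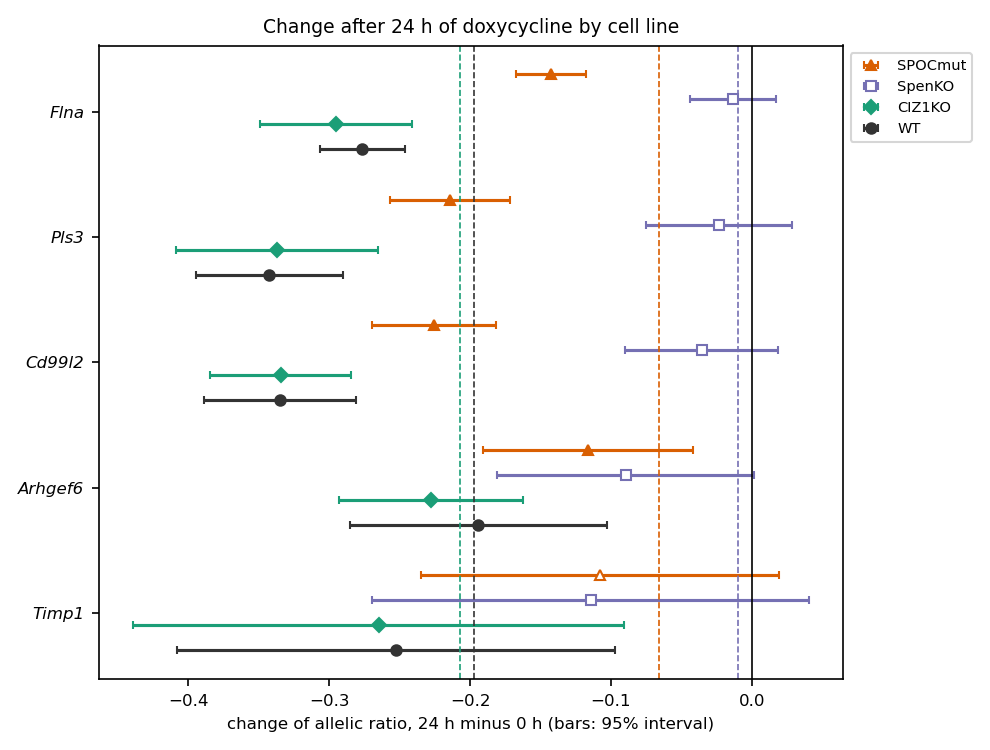
Change of allelic ratio between 24 h and 0 h (x axis) of each gene (rows) in SPOCmut, SpenKO, CIZ1KO and WT, with 95% intervals from limma, filled symbols for changes that passed the test, open symbols for those that did not, and dashed lines at the median change of all genes of each line. Flna, Pls3 and Cd99l2 lie left of the dashed line of their own line in SPOCmut, CIZ1KO and WT, and the SpenKO symbols are all open.

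The response to doxycycline differed between SpenKO and WT at Flna, Pls3 and Cd99l2, 3 of the 5 genes, where 76.7% of all genes differed. The change was less negative in SpenKO by 0.263 ± 0.0194 at Flna (SE, limma adjusted p = 1.02e-06), 0.319 ± 0.0333 at Pls3 (adjusted p = 1.11e-05) and 0.299 ± 0.0347 at Cd99l2 (adjusted p = 2.34e-05). The difference was 0.104 ± 0.0584 at Arhgef6 (adjusted p = 0.123), and the test passed when only the SpenKO and WT libraries at these times set the spread (adjusted p = 0.0230) or on a log2 odds scale (adjusted p = 0.0277). At Timp1 it was 0.138 ± 0.0993 (adjusted p = 0.214), and 0.252 (adjusted p = 0.0205) without the first SpenKO library at 24 h.

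SPOCmut and WT responses differed at the same 3 genes, against 58.5% of all genes. The fall was smaller in SPOCmut by 0.134 ± 0.0177 at Flna (SE, limma adjusted p = 0.000114), 0.129 ± 0.0304 at Pls3 (adjusted p = 0.00421) and 0.109 ± 0.0316 at Cd99l2 (adjusted p = 0.0117, but 0.0725 with Benjamini-Yekutieli adjustment). The median difference of all genes was 0.121. At Arhgef6, 0.0775 ± 0.0533 (adjusted p = 0.229), and at Timp1, 0.145 ± 0.0906 (adjusted p = 0.190), no difference was called. These comparisons use the WT libraries in common with those of SpenKO.

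At 24 h alone, all 5 genes had higher ratios in SpenKO than in WT, against 88.1% of all genes, and all 5 were higher in SPOCmut than in WT, against 78.9% higher and 0.37% lower among all genes. In SpenKO the excess was 0.277 at Flna, 0.349 at Pls3, 0.326 at Cd99l2 and 0.245 at Arhgef6, each with no overlap between libraries (limma adjusted p from 1.83e-08 to 0.000209). In SPOCmut it was 0.155 at Flna, 0.147 at Pls3, 0.125 at Cd99l2 and 0.147 at Arhgef6, again without overlap (adjusted p from 1.32e-06 to 0.00445). Without the first WT library at 24 h, the SPOCmut excess at Arhgef6 was 0.117 (adjusted p = 0.0507).

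For Timp1 the 24 h excess over WT was 0.175 ± 0.0702 in SpenKO (SE, n = 2 each, limma adjusted p = 0.0358) and 0.209 ± 0.0641 in SPOCmut (n = 3 and 2, adjusted p = 0.0116). The SpenKO and WT libraries overlapped. Without the second WT library these were 0.0991 (adjusted p = 0.262) and 0.133 (adjusted p = 0.137). The SpenKO excess was 0.0612 (adjusted p = 0.384) without the second SpenKO library at 24 h and 0.289 (adjusted p = 0.00202) without the first. SPOCmut lay below SpenKO at 24 h at Flna (-0.122), Pls3 (-0.202) and Cd99l2 (-0.201), 3 of the 5 genes, where 40.7% of all genes were called lower. Arhgef6 differed by -0.0974 ± 0.0377 (adjusted p = 0.0604, and 0.00775 when only the SPOCmut and SpenKO libraries at 24 h set the spread).

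CIZ1KO cells lost 129S share at all 5 genes, as did 85% of the 254 genes of the CIZ1 table. Flna had 0.209 and 0.259 at 24 h, against 0.515 and 0.544 at 0 h, a change of -0.295 ± 0.0219 (SE, n = 2 each, limma adjusted p = 0.000127). Pls3 had 0.0688 and 0.121 at 24 h, against 0.427 and 0.438 at 0 h (-0.337 ± 0.0292, adjusted p = 0.000161). The first of these is the lowest ratio of any ES library for the 5 genes. Cd99l2 had 0.284 and 0.241 at 24 h, against 0.606 and 0.588 at 0 h (-0.334 ± 0.0203, adjusted p = 9.61e-05). Arhgef6 had 0.170 and 0.193 at 24 h, against 0.390 and 0.429 at 0 h (-0.228 ± 0.0264, adjusted p = 0.000455). Timp1 had 0.333 and 0.267 at 24 h, against 0.645 and 0.485 at 0 h, and its change of -0.265 ± 0.0709 (adjusted p = 0.0136) came with the widest spread between replicates. No group overlapped its counterpart. The Timp1 change was -0.185 (adjusted p = 0.0554) without the first 0 h library and -0.232 (adjusted p = 0.0740) without the second 24 h library.

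Against the library median, Flna, Pls3 and Cd99l2 fell by more than the shared shift in CIZ1KO too, where 14.2% of all genes were called below it and 18.1% above. The differences were -0.0871 ± 0.0219 for Flna (limma adjusted p = 0.0285), -0.129 ± 0.0274 for Pls3 (adjusted p = 0.0173) and -0.126 ± 0.0211 for Cd99l2 (adjusted p = 0.00932; n = 2 each). Cd99l2 passed with any 1 of the 4 CIZ1KO libraries left out. Flna and Pls3 missed the threshold without the first 0 h library (adjusted p = 0.0574 and 0.0557), the second 0 h library (0.104 and 0.0630) or the first 24 h library (0.122 and 0.0804).

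None of the 5 genes differed between CIZ1KO and WT at 24 h, nor did any of the 254 genes (0%). At an unadjusted p under 0.05, 1 of the 5 did, Cd99l2, with 0.284 and 0.241 in CIZ1KO, against 0.186 and 0.207 in WT (0.0663 ± 0.0203, SE, n = 2 each, limma adjusted p = 0.418). At that threshold, 4 of the 254 genes were lower and 21 higher in CIZ1KO. The same gene was higher in CIZ1KO by 0.0655 at 0 h (adjusted p = 0.663), and its response differed by 0.000715 ± 0.0287. Differences of response between CIZ1KO and WT ran from -0.0337 at Arhgef6 to 0.00544 at Pls3. None of the 5 passed at an adjusted p under 0.05, nor did any of the 254 genes (0%). None of the 5 passed at an unadjusted p under 0.05 either, where 4 of the 254 genes were lower and 7 higher. The 95% intervals of these differences reached from -0.0950 to 0.0574 at Flna, -0.0962 to 0.107 at Pls3 and -0.0701 to 0.0715 at Cd99l2. They reached from -0.126 to 0.0582 at Arhgef6 and from -0.259 to 0.235 at Timp1. These libraries do not tell apart differences of response inside these bounds.

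**Figure D4:**
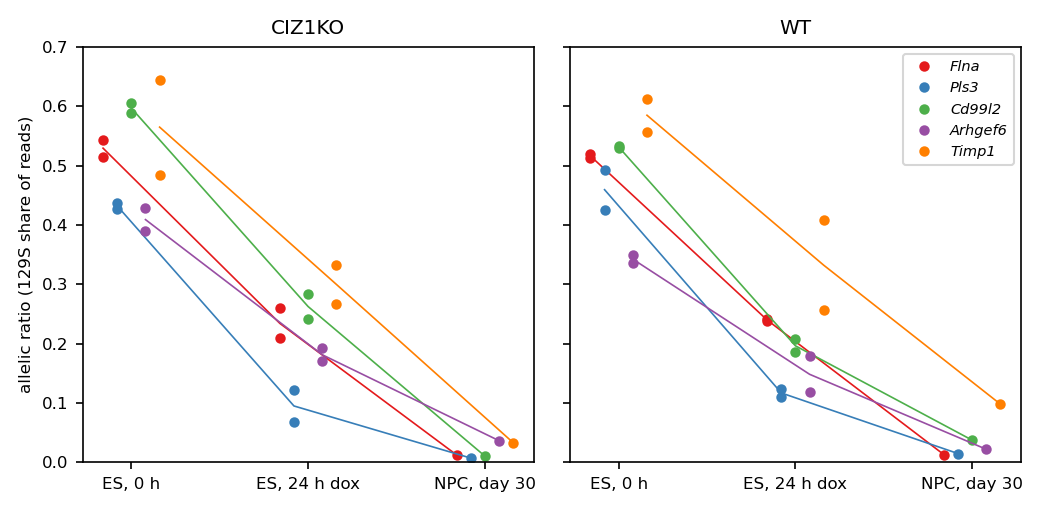
Allelic ratio (129S share, y axis) of the 5 genes in CIZ1KO (left) and WT (right) ES cells at 0 h, ES cells at 24 h of doxycycline and NPC at day 30 (x axis), with a point for each library. All NPC points lie between 0.00733 and 0.0980, below every ES library of the same gene.

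In NPC at day 30 the 129S share of all 5 genes was lower than in any ES library. Each line has 1 NPC library, so no test was made, and the labels do not say whether these cultures received doxycycline or grew with feeders. Flna had 0.0126 in CIZ1KO NPC and 0.0131 in WT NPC. Pls3 had 0.00733 and Cd99l2 0.0108 in CIZ1KO NPC, against 0.0149 and 0.0375 in WT NPC. Arhgef6 had 0.0366 in CIZ1KO and 0.0221 in WT. These 4 genes thus had nearly all of their assigned RNA from the Cast copy in both lines.

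Timp1 kept the largest 129S share of the 5 genes in WT NPC, with 0.0333 in CIZ1KO NPC and 0.0980 in WT NPC. Over the 254 genes the median was 0.0830 in CIZ1KO NPC and 0.0546 in WT NPC. Fewer genes lay below Flna (35 in CIZ1KO and 47 in WT) and Pls3 (29 in CIZ1KO and 53 in WT) than below Timp1 (70 in CIZ1KO and 162 in WT). Cd99l2 had 33 genes below it in CIZ1KO and 103 in WT, and Arhgef6 had 73 in CIZ1KO and 67 in WT. Syn1 had 0.115 in CIZ1KO NPC and 0.116 in WT NPC.

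Likeness between genes was measured as the root mean square difference of their ratios over the 17 libraries of the Spen table. It is a description, since the genes share libraries. Among the 5, Flna and Cd99l2 were closest, at 0.0456, followed by Pls3 and Arhgef6 at 0.0719, while Arhgef6 and Timp1 lay farthest apart at 0.234. Closest to Flna among all genes were Lonrf3 (0.0337), Enox2 (0.0344) and Fhl1 (0.0361), against a median distance of 0.0861. Tex11 (0.0261), Phka1 (0.0333) and Dmd (0.0396) came closest to Pls3, whose median distance was 0.131. Fhl1 (0.0396), Zc3h12b (0.0398) and Msn (0.0404) came closest to Cd99l2 (median 0.107). Msn encodes moesin, which links actin to the membrane, and Fhl1 a LIM protein found on the cytoskeleton of muscle. Gpc4 (0.0492), Slc9a7 (0.0505) and 2010204K13Rik (0.0584) were nearest to Arhgef6 (median 0.136). Nothing lay as near to Timp1, for which Bcorl1 (0.0933), Zfx (0.100) and Elf4 (0.101) led, with a median of 0.159.

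Of 23 other X genes listed for the actin cytoskeleton and its control, 11 were measured. All 11 fell at 24 h in WT, where 88.9% of all genes did, with a median change of -0.295 against -0.197 over all genes. They ran from Nhsl2, at -0.382, to Emd, at -0.116, and included Msn at -0.367 and the dystrophin gene Dmd at -0.332. In SPOCmut 8 of 11 fell, against 49.6% of all genes (median -0.127, all genes -0.0658). In SpenKO 0 of 11 passed, against 0.741% of all genes called lower (median -0.0125, all genes -0.00937). In CIZ1KO 11 of 11 fell, against 85% of all genes (median -0.265, all genes -0.207). At 3 h in WT, Dmd, Stard8 and Nhsl2 were called lower, against 17% of all genes. Shroom4, which encodes an actin-binding protein, was called higher, against 5.19% of all genes. It rose by 0.0822 ± 0.0163 (SE, n = 2 each, limma adjusted p = 0.00477).

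Of 26 listed genes of adhesion, matrix and the cell surface, 11 were measured in the Spen table. In WT at 24 h, 10 fell, against 88.9% of all genes, with a median change of -0.284 (all genes -0.197). The neural adhesion gene L1cam had the lowest value, -0.372 ± 0.0816 (SE, n = 2 each, limma adjusted p = 0.00135), and Srpx, at -0.0389 ± 0.116 (adjusted p = 0.758), was the one that did not pass. In SPOCmut 8 fell, against 49.6% of all genes (median -0.0960, all genes -0.0658). In SpenKO 0 passed, against 0.741% of all genes called lower (median -0.0170, all genes -0.00937). In CIZ1KO 10 of 12 measured fell, against 85% of all genes (median -0.282, all genes -0.207).

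Of 23 listed X genes also expressed by fibroblasts, 14 were measured, the 5 genes among them. Fhl1 and Msn are in the actin list too, and Srpx, Gpc4 and Tmem47 in the adhesion list, so the lists are not separate evidence. In WT at 24 h, 13 of 14 fell, close to the 88.9% of all genes (median -0.265, all genes -0.197). At 3 h Pls3 was called lower and Flna higher, against 17% and 5.19% of all genes. In SPOCmut 9 fell, against 49.6% (median -0.144, all genes -0.0658). In SpenKO 0 passed, against 0.741% of all genes called lower (median -0.0305, all genes -0.00937). Of the 9 in SPOCmut, 4 were Flna, Pls3, Cd99l2 and Arhgef6, already given above, and the rest were Gpc4, Mospd1, Fhl1, Maged1 and Msn. In CIZ1KO 13 fell, against 85% (median -0.297, all genes -0.207). The median ratio of these 14 genes at 24 h was 0.346 to 0.395 over the SPOCmut libraries, 0.496 to 0.520 in SpenKO, 0.250 to 0.252 in CIZ1KO and 0.227 to 0.244 in WT. At 0 h it was 0.532 to 0.537 in SPOCmut, 0.518 to 0.538 in SpenKO, 0.544 to 0.548 in CIZ1KO and 0.513 to 0.516 in WT. In NPC it was 0.0385 in CIZ1KO and 0.0365 in WT. Of 6 listed X genes of ES cells, 5 fell in SPOCmut, against 49.6% of all genes (median -0.0757). In SpenKO 0 passed, against 0.741% called lower (median -0.00350), and all 6 fell in WT at 24 h, against 88.9% (median -0.223). Of 5 listed neural genes only Nap1l2 and Il1rapl1 were measured, and both fell in WT at 24 h, against 88.9% of all genes. Nap1l2 passed narrowly (-0.226 ± 0.0957, SE, limma adjusted p = 0.0437). Of these, 0 passed in SPOCmut, against 49.6%, 0 in SpenKO, against 0.741%, and 1 in CIZ1KO (Nap1l2), against 85%.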

How the data were processed

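Libraries of chromatin-associated RNA were made with a strand-keeping kit, per the labels' protocols. The authors deposited 1 fraction (allelic ratio) per gene and library in a table for the Spen lines (270 X genes, 17 libraries) and one for CIZ1 (254 genes, 10 libraries), with no read counts. The build mm10 and the tools STAR 2.4.2a, Bowtie2 2.3.2, bedtools, SAMtools, edgeR and featureCounts appear with no role, per the submitters' processing notes. How genes were filtered, alleles assigned and strand used is not given in the sources used here, and such steps can shift ratios of overlapping genes. Columns marked Dox without a time were taken as 24 h, as in the sample titles. Starts in the tables, counted from 0, were raised by 1.

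Ratios were used unscaled. Each table was fitted in limma 3.58.1 (R 4.3.3) with a mean per group and all libraries in 1 fit. P-values are two-sided and adjusted over the table by Benjamini-Hochberg, with calls at an adjusted p under 0.05. The fitting code was tested on simulated ratios. A second fit used the ratio minus the library median. Groups of 1 library were given as values. Positions and overlaps come from GENCODE M21, promoters from RefSeq. Figures were drawn with matplotlib 3.10.9.

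The 5 genes and the related lists were chosen with earlier results of these data known. Named besides them are, per gene, the 3 with the smallest root mean square difference, the nearest neighbours (not all are reported here), and listed genes with extreme or called changes. Msn and Dmd were named after their values were seen. Alternatives were the spread from compared libraries only, a log2 odds scale (ratios held at 0.01 from the ends), Benjamini-Yekutieli adjustment, robust eBayes, shared genes only, another centre, each library left out and a replicate block. SPOCmut libraries pair by clone, and deviations from the group means of the same clone correlated at -0.0170 (C10), -0.113 (C2) and 0.148 (G1). The 4 samples with an Xist transgene on chromosome 15, and the chromosome 15 table, were not used here. Spen and Ciz1 are not X-linked, so the targeted genes were not checked.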

Additional observations from a re-analysis of the deposited data

Results flagged for a closer look

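The response to 24 h of doxycycline, the 24 h minus the 0 h ratio, differed between lines by an interaction test in limma at 3 of the 5 genes in SpenKO, where 76.7% of all genes differed, and at 3 of the 5 in SPOCmut, where 58.5% did. Relative to WT the SpenKO response of Flna was higher by 0.263 (adjusted p = 1.02e-06), that of Pls3 by 0.319 (adjusted p = 1.11e-05) and that of Cd99l2 by 0.299 (adjusted p = 2.34e-05). Relative to WT the SPOCmut response of Flna was higher by 0.134 (adjusted p = 0.000114), that of Pls3 by 0.129 (adjusted p = 0.00421) and that of Cd99l2 by 0.109 (adjusted p = 0.0117). Both lines are set against the same WT libraries. No group had enough libraries to look for a library far from the others.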

How the results depend on the processing

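The 24 h falls of Flna, Pls3 and Cd99l2 in SPOCmut, CIZ1KO and WT, and their less negative changes in SpenKO and in SPOCmut than in WT, kept their direction under every alternative run, and lost a call only for Cd99l2 in SPOCmut against WT under Benjamini-Yekutieli adjustment. Over single genes, 977 of the values under alternatives kept direction and side of the threshold, 31 no longer passed, 5 newly passed and 32 changed sign. None of the values that changed sign had passed the test with all libraries, and the cause was not tested. At 3 h in WT, 0 of the 5 genes passed when only the compared libraries set the spread, 1 under Benjamini-Yekutieli adjustment, and 0 to 2 with 1 library left out, against 2. Below the library median in CIZ1KO were 1 to 3 genes with 1 library left out, against 3.

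With 1 library left out, values that crossed 0 ran as follows. Relative to the library median they ran for Arhgef6 in WT from -0.00672 to 0.0403, for Timp1 in SpenKO from -0.217 to 0.00856, in CIZ1KO from -0.141 to 0.0270 and in WT from -0.125 to 0.0408, and in SpenKO for Flna from -0.0176 to 0.0116 and Pls3 from -0.0269 to 0.00112. Cd99l2 in WT at 3 h ran from -0.0381 to 0.0257. Timp1 in SPOCmut against SpenKO at 24 h ran from -0.0797 to 0.148. Pls3 at 0 h against WT ran from -0.00455 to 0.0634 in SpenKO and from -0.0160 to 0.0520 in SPOCmut. For CIZ1KO against WT at 24 h the ranges were -0.0307 to 0.0195 (Flna), -0.0482 to 0.00442 (Pls3) and -0.108 to 0.0436 (Timp1), and at 0 h -0.000937 to 0.0274, -0.0613 to 0.00661 and -0.100 to 0.0601. The differences of response ran from -0.0439 to 0.00629 (Flna), -0.0285 to 0.0394 (Pls3), -0.0206 to 0.0220 (Cd99l2) and -0.0924 to 0.0679 (Timp1), and that of Pls3 was -0.230 on the log2 odds scale.

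With a replicate block, 4 of the 5 genes fell in SPOCmut, 5 in CIZ1KO and 5 in WT at 24 h, as without it. The one call it ended was Timp1 in SpenKO against WT at 24 h (adjusted p = 0.0916), where numbers pair libraries across lines by number alone. In WT, SpenKO and CIZ1KO the replicates share only a number. Their deviations correlated at 0.101 between 0 h and 24 h in WT, 0.112 in SpenKO and -0.107 in CIZ1KO. With crossed numbers in CIZ1KO, an alternative chosen after seeing the data, 5 genes fell and 2 lay below the library median. The read depth behind each ratio is unknown, so what it limits could not be measured.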
